A study of Mus musculus with 12 samples.

Results

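miR-126 is a microRNA of endothelial cells, the cells that line blood vessels and the liver sinusoids. It is processed from a single hairpin precursor that lies within Egfl7, a gene for a secreted protein of the vessel wall, and both arms of the hairpin give a mature microRNA. The 3p arm is known to repress Spred1 and Pik3r2, inhibitors of signalling downstream of vascular endothelial growth factor, and the 5p arm is known to repress Dlk1, an inhibitor of endothelial proliferation. The arrays carried 650 entries (611 of mouse and 39 of herpesviruses), and the 2 described here, mmu-miR-126-3p and mmu-miR-126-5p (miR-126-3p and miR-126-5p), were chosen by their names on the array.

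The liver RNA came from adult mice that ate and drank freely, with lights on for 12 h of each day; strain, sex and genotype are not given in the sources used here. Livers were taken every 4 h from zeitgeber time (ZT, hours counted from a lights-on) 18 to 62, and RNA of 2 livers was pooled for each of 12 one-colour arrays. Arrays 24 h apart share a clock time (2, 6, 10, 14, 18 or 22 h after lights on), and the earlier and later array of a clock time are called cycle 1 and cycle 2. The 6 arrays of 2, 6 and 10 h were in the light and the other 6 in the dark, and the series asks how microRNAs take part in the circadian rhythm of the liver. Each replicate was 1 pool on 1 array, so p-values measure the spread between pools and hybridisations, not between mice.

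RefSeq (GRCm38.p6) places the hairpin gene, Mir126a, at chr2:26591357-26591429 on the plus strand, inside Egfl7, and a second annotated hairpin, Mir126b, overlaps it on the opposite strand. Of both members, 1 matched a mature sequence in the RefSeq table, where miR-126-3p is called miR-126a-3p (chr2:26591402-26591423, plus strand). The sequences are shown because the seed, bases 2 to 8 of the mature microRNA and the part that pairs with targets, sets miR-126-3p apart, and because the hairpin shows how both arms belong to 1 precursor. Capitals mark the seed in the mature sequence and the 3p arm in the hairpin; the 5p arm lies in the first part of the hairpin, before the loop.
miR-126a-3p: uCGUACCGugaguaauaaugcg
Mir126a hairpin: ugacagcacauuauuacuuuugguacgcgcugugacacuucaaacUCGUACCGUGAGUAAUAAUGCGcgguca
The 3p arm covers bases 46 to 67 of the 73 bases of the hairpin. Among the 1738 mature mouse sequences of the table, 0 others had the seed of miR-126-3p, so no other mouse microRNA listed there shares that stretch.

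By Agilent's detection flag for an entry, the arrays detected 132 to 162 entries each, with 16.5% to 19.6% of spots well above background. The hepatocyte microRNA miR-122 was detected on all 12. Both arms of miR-126 were detected on all 12 arrays too. Each was read by a pair of probes with 10 spots each. For miR-126-3p both probes were well above background on every array, the brighter at a mean of 1330 scaled intensity units and the second at 981. For miR-126-5p the brighter probe averaged 86.8 units and every spot of it passed as well above background. The second miR-126-5p probe was not above background on any array by the rule used (over 50% of its spots well above background): 7.5% of its spots passed and its signal lay between 8.73 and 22.6 units. Each arm is therefore described by its brighter probe, and miR-126-3p by both where they differ. Probes bind with different strength, so the intensities do not say which arm was more abundant, and only changes of each arm between arrays are read. In whole-liver RNA, fewer endothelial cells and less of a microRNA per cell cannot be told apart.

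miR-126-3p stayed nearly level over both days. Light arrays read 1292 and 1314 units at 2 h after lights on (cycle 1 and cycle 2), 1272 and 1386 at 6 h, and 1324 and 1393 at 10 h. Dark arrays read 1256 and 1372 units at 14 h, 1288 and 1384 at 18 h, and 1369 and 1357 at 22 h. The highest array (ZT58) stood 1.11-fold above the lowest (ZT38), and light and dark arrays overlapped. On the log2 scale the arm measured 10.38 ± 0.05 (SD, n = 12). Its SD of 0.053 was the 10th smallest among the 109 tested entries that never fell to the lower limit of 21.9 units, for which the median SD was 0.095. This ranking takes entries of all intensities together, and the arm was not ranked among entries of like intensity.

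miR-126-5p also showed no regular course, and its spread was wider. Light arrays read 88.8 and 88.4 units at 2 h, 74.5 and 92.8 at 6 h, and 88.2 and 91.4 at 10 h. Dark arrays read 87.7 and 76.4 units at 14 h, 87.5 and 95.2 at 18 h, and 83.6 and 86.7 at 22 h. The ZT30 and ZT62 arrays were the lowest and the other 10 arrays lay between 83.6 and 95.2 units. The arm measured 6.44 ± 0.10 log2 units (SD, n = 12), its highest array (ZT42) was 1.28-fold above its lowest, and its SD of 0.105 ranked 62 of 109.

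The spots of 1 probe on 1 array show the error of reading an array; they leave out the errors of labelling, hybridisation and slide, which arrays 24 h apart also carry. For miR-126-3p the SD between spots within an array was 0.054 log2 units, so the mean of an array had a standard error of 0.018, and the SD between arrays was 2.94 times that error. For miR-126-5p the SD between spots was 0.228, the standard error of an array 0.073, and the SD between arrays 1.43 times that error. Spots of the dimmer arm varied by a median of 14.5% within an array (3.59% to 23.6%), against 3.47% (0.758% to 5.84%) for miR-126-3p. The array means of the 5p arm were therefore less precise than those of the 3p arm.

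**Figure D1:**
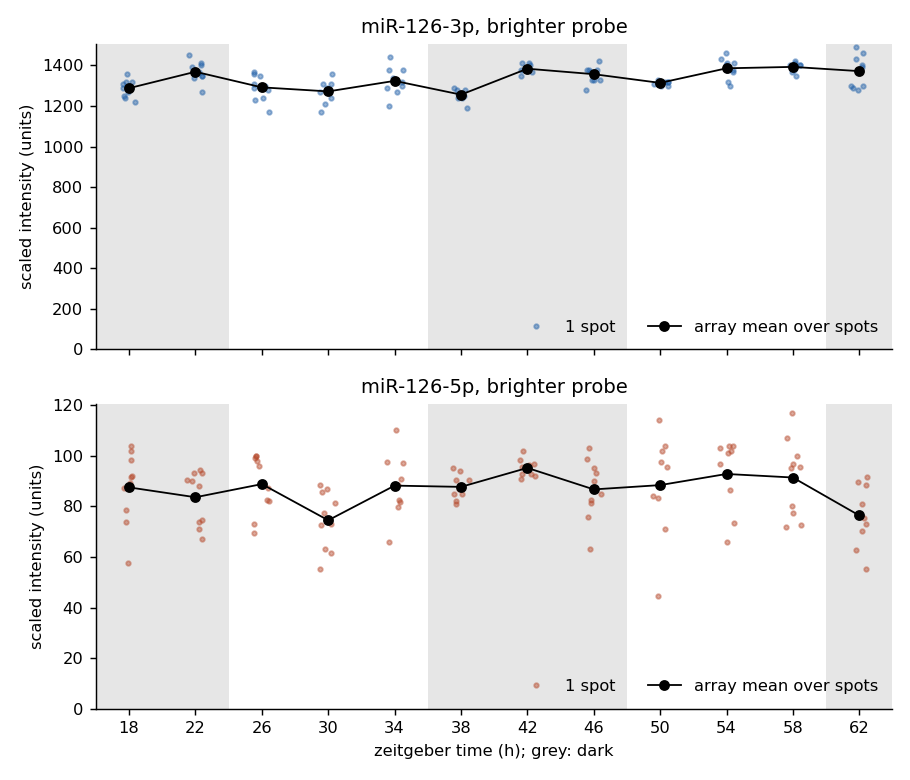
Scaled intensity of the brighter probe of miR-126-3p (top) and miR-126-5p (bottom) against zeitgeber time in hours; coloured points are single spots, black points the mean of the spots of an array (1 pool of 2 livers), and grey bands the dark. The array means of miR-126-3p lie between 1256 and 1393 units, and those of miR-126-5p between 74.5 and 95.2 with widely scattered spots.

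With the scaling used, neither arm passed a test for a rhythm with a period of 24 h. From trough to peak the fitted curve of miR-126-3p spanned 1.01-fold (upper 95% limit 1.10), and that of miR-126-5p 1.02-fold (upper 95% limit 1.23). The adjusted p was 1 for both in limma. The fit held all 139 entries that Agilent's flag called detected on at least 6 arrays. Of these, 109 never fell to the lower limit of 21.9 units, while some, such as miR-219, lay at it on all 12. None of the 139 passed the rhythm test (0%), with 5 at an unadjusted p under 0.05. The size of the fitted curve depended on the setting and on single arrays. For miR-126-3p its span was 0.0113 log2 units, against 0.436 with scaling on all probes and 0.0487 without ZT38. For miR-126-5p it was 0.034, against 0.448 with scaling on all probes, 0.575 with normexp and 0.0805 without ZT62. These larger spans lie above the upper limits given, apart from those with an array left out, and over the alternatives run the lowest adjusted p in limma was 0.696 for either arm. Scaling on all probes also moved the entries as a whole. It took the 75th percentile over all 1857 probes, of which 157 were detected on every array. On an array 16.5% to 19.6% of spots were well above background. With scaling on all probes the median dark minus light difference of the 139 entries was 0.378 log2 units, against -0.023 with the scaling used. With normexp that median was -0.36.

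Between dark and light the difference of miR-126-3p was close to 0. The 6 light arrays averaged 10.38 ± 0.05 log2 units (SD) and the 6 dark arrays 10.38 ± 0.06. Dark over light was 1.01-fold (95% interval 0.959 to 1.05), and 4 of 6 dark arrays lay above the light mean. For miR-126-5p the light arrays averaged 6.45 ± 0.11 (SD, n = 6) and the dark arrays 6.43 ± 0.10 (SD, n = 6). Here dark over light was 0.987-fold (95% interval 0.898 to 1.09), with 3 of 6 dark arrays above the light mean. In limma the adjusted p was 1 for miR-126-3p and 0.974 for miR-126-5p. None of the 139 entries passed (0%); 11 had an unadjusted p under 0.05, of which 3 were higher (2.16%) and 8 lower (5.76%) in the dark, and neither arm was among them. The sign of so small a difference is not a result: by its second probe miR-126-3p differed by -0.029 log2 units, without scaling miR-126-5p differed by 0.0422, and scaling on all probes moved both arms (0.437 and 0.411) along with the median of all tested entries (0.378).

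The dark minus light difference was alike in both cycles for miR-126-3p (0.01 log2 units in each). For miR-126-5p it was 0.05 in cycle 1 and -0.08 in cycle 2. In a limma test of that change between cycles, added after the data had been seen, the adjusted p was 1 for miR-126-3p and 0.944 for miR-126-5p. None of the 139 entries passed (0%), and 3 had an unadjusted p under 0.05.

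The 6 clock times were then put in order. For miR-126-3p the means rose from 10.35 log2 units at 2 h after lights on through 14, 6, 18 and 10 h to 10.41 at 22 h, a span of 1.05-fold. No step between neighbours exceeded 0.024, while the pooled SD between the arrays of a clock time was 0.064. For miR-126-5p the order was different, from 6.36 at 14 h through 6, 22, 2 and 10 h to 6.51 at 18 h, a span of 1.12-fold. Its largest step was 0.057 against a pooled SD of 0.115. Sorting the means by value keeps the steps small, so these steps do not test for an effect of clock time. The pooled SD is that of single arrays and includes any difference between the cycles. The span over clock times, 0.065 log2 units for miR-126-3p, was 0.788 with scaling on all probes, 0.194 with normexp, 0.175 without scaling and 0.118 without ZT62. That of miR-126-5p, 0.157, was 0.666 with scaling on all probes, 1 with normexp and 0.293 without ZT54. Scaling on all probes and normexp also moved the median dark minus light difference of all tested entries, to 0.378 and -0.36 log2 units. In limma's test over the clock times the adjusted p was 0.936 for miR-126-3p and 0.879 for miR-126-5p. None of the 139 entries passed (0%), and 5 had an unadjusted p under 0.05.

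Since both arms come from 1 hairpin, the question was whether their ratio moved with time. The difference of log2 intensities (3p minus 5p) was formed on each array, which takes out the scaling between arrays; its size depends on the probes, so only its deviation from its mean over the 12 arrays is given. The deviation was 0.22 at ZT62, 0.15 at ZT30 and 0.09 at ZT22, and between -0.10 and 0.02 on the other 9 arrays. The highest pair of arrays are those where miR-126-5p was lowest, a light array and a dark array. The difference changed by 0.027 log2 units from light to dark (exact permutation test, two-sided, p = 0.684) and by 0.017 from cycle 1 to cycle 2 (exact permutation test over pairs, p = 0.812). Its 24-h curve spanned 1.02-fold (permutation test of the time labels, p = 0.949), or 0.029 log2 units. That span was 0.0856 without ZT62 and 0.0751 without ZT22, 0.259 with Agilent's total gene signal and 0.7 with normexp, with a lowest permutation p of 0.217 over the alternatives. Adjusted over these 3 tests each p was 0.949. The number of arrangements allowed p-values down to 0.00216 for light against dark and 0.0312 for the cycles. With the second probe of miR-126-3p the dark minus light difference of the arms was -0.0104, and without ZT62 it was -0.0149, so its sign was not stable. With quantile normalization it was 0.0816 (exact permutation test, two-sided, p = 0.0541), the lowest p for it over the alternatives. With normexp it was 0.405 (exact permutation test, two-sided, p = 0.136).

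**Figure D2:**
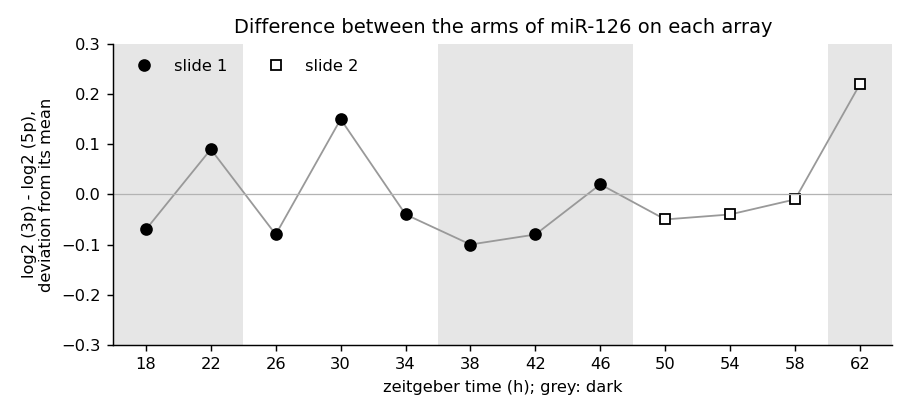
Difference of the log2 intensities of miR-126-3p and miR-126-5p on each array, as the deviation from its mean over 12 arrays, against zeitgeber time in hours; filled circles are slide 1, open squares slide 2 and grey bands the dark. ZT30 (0.15) and ZT62 (0.22) stand highest, and 9 arrays lie between -0.10 and 0.02.

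With the scaling used, the correlation of the arms over the 12 arrays did not pass its test. Their log2 levels correlated with Pearson's r = 0.302 (permutation p = 0.344, adjusted 0.344 over 3 relations) and Spearman's rho = 0.455 (permutation p = 0.14, adjusted 0.14). Without ZT30 and ZT38, the arrays farthest from the median of miR-126-3p, r was 0.07, and among the 8 arrays of slide 1 it was 0.42 (permutation p = 0.331). Leaving out ZT30 alone gave 0.0581 and leaving out ZT62 alone 0.534. The pair of probes of miR-126-3p, read in the same way, correlated with r = 0.864 (permutation p = 0.00042, adjusted 0.00126) and rho = 0.909 (permutation p = 1e-04, adjusted 3e-04). That relation kept r = 0.801 without the same pair of arrays and r = 0.798 on slide 1 (permutation p = 0.0185). With the mean of each cycle taken out, r was 0.688 for the pair of probes and 0.15 for the arms. Both probes of the pair read the same arm. An array mean of miR-126-5p had a standard error of 0.073, against an SD between arrays of 0.105. The part of that error in the lower r of the arms was not tested. The second 3p probe and miR-126-5p correlated with r = 0.36 (permutation p = 0.253, adjusted 0.344) and rho = 0.552 (permutation p = 0.0681, adjusted 0.102), and r was 0.129 without ZT54 and ZT58.

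The correlation of the arms depended on the scaling, which both arms of an array share. It was 0.718 with no scaling between arrays (permutation p = 0.0097) and 0.977 with scaling on all probes (permutation p = 3e-05), both past the threshold, and 0.501 with quantile normalization (permutation p = 0.0968). It was -0.284 with each array scaled to miR-122, the main hepatocyte microRNA (permutation p = 0.373). With the normexp background correction it was -0.868 (permutation p = 0.0524), which did not pass the threshold. Over the 107 other entries never at the lower limit, the median r with miR-126-3p was likewise 0.142 with the scaling used, 0.651 without scaling and 0.973 with scaling on all probes.

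**Figure D3:**
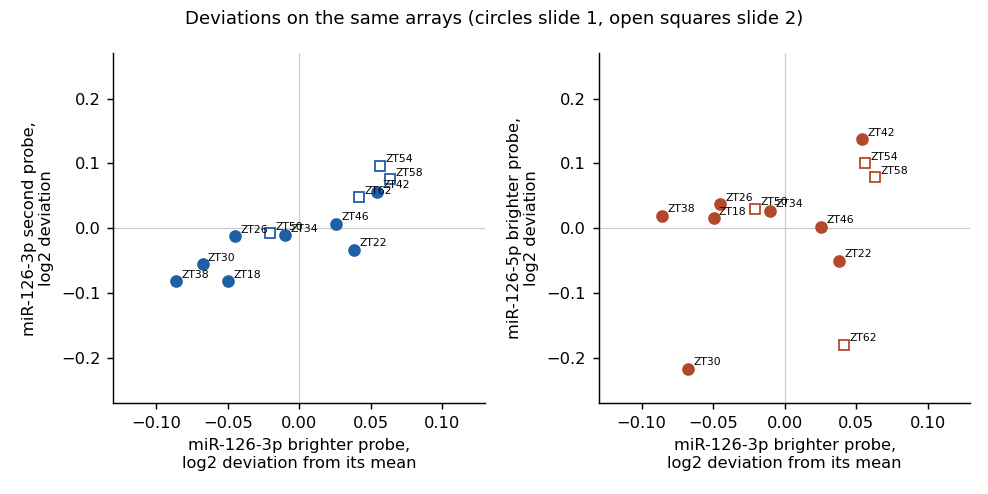
Log2 deviations from the mean over 12 arrays: the second probe of miR-126-3p (left) and miR-126-5p (right) against the brighter probe of miR-126-3p, 1 point per array, with filled circles for slide 1 and open squares for slide 2. The probes of miR-126-3p lie along a line (r = 0.864), while miR-126-5p scatters (r = 0.302), with ZT30 and ZT62 far below the rest. The array means of miR-126-5p were less precise than those of miR-126-3p.

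From cycle 1 to cycle 2 miR-126-3p stood slightly higher, at 5 of 6 clock times. The brighter probe differed by 0.02 log2 units at 2 h after lights on, 0.12 at 6 h, 0.07 at 10 h, 0.13 at 14 h, 0.10 at 18 h and -0.01 at 22 h. The mean difference was 0.0734 (SE 0.0225), a fold of 1.05 (95% interval 1.01 to 1.09), and 4 of 6 cycle 2 arrays lay above every cycle 1 array. It did not pass in limma (adjusted p = 0.865), although its unadjusted p of 0.0173 was the smallest of the 139. None passed (0%) and 5 had an unadjusted p under 0.05, all 5 of them higher in cycle 2 (3.6% of those tested).

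The second probe of miR-126-3p averaged 9.89 ± 0.03 log2 units over the 6 arrays of cycle 1 (SD) and 9.98 ± 0.04 over those of cycle 2, and was higher at 6 of 6 clock times. Its cycle 1 arrays read from 926 to 973 units and its cycle 2 arrays from 975 to 1048, so that the cycles did not overlap, by a margin of 2 units. Among the 139 entries, each by its brightest probe, 0 stood wholly above (0%), miR-126-3p included. Among the 66 probes detected on all arrays that were not the brightest of their entry, 1 did (1.52%), and that is this probe, which was singled out after its values were seen. With this probe in place of the brighter one the difference was 0.0918 and the adjusted p in limma 0.865.

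miR-126-5p differed by 0.0562 log2 units between the cycles (SE 0.0668), a fold of 1.04 (95% interval 0.928 to 1.16), with an adjusted p of 0.866 in limma. It was higher at 4 of 6 clock times, by 0.32 at 6 h and 0.12 at 18 h, but lower by -0.20 at 14 h. The 6 h and 14 h values hold the low arrays ZT30 and ZT62, and without the 6 h pair the mean difference was 0.00411, without the 14 h pair 0.107.

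Cycle and slide overlapped: ZT18 to ZT46 were on slide 1, with 8 arrays, and the last 4 arrays on slide 2. Only the clock times 18 and 22 h had both cycles on slide 1, and with the slide as a block the difference was 0.0458 for miR-126-3p and 0.0875 for miR-126-5p, each with an adjusted p of 1 in limma. Set against miR-122 on the same array, miR-126-3p was higher at 4 of 6 clock times in cycle 2, by 0.038 log2 units (exact permutation test, two-sided, p = 0.406, adjusted 0.812 over 4 tests). Scaling on all probes gave -0.46 for miR-126-3p and -0.477 for miR-126-5p, along with a median of -0.497 over all tested entries; relative to that median they were 0.037 and 0.02 higher. With normexp the median moved to 0.356, and relative to it miR-126-3p differed by -0.346 and miR-126-5p by -0.013. The part of slide and scaling in the cycle difference was not tested.

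**Figure D4:**
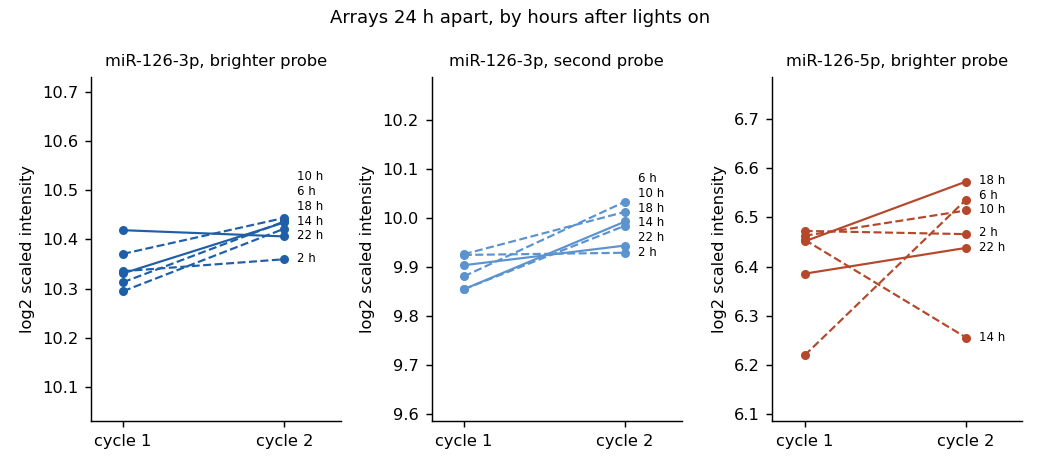
Log2 scaled intensity in cycle 1 and cycle 2 for both probes of miR-126-3p and the brighter probe of miR-126-5p; each line joins arrays 24 h apart and is labelled with the hours after lights on, solid where both arrays were on slide 1 and dashed where they were on different slides. The second probe of miR-126-3p is higher in cycle 2 at 6 of 6 clock times, and miR-126-5p at 4 of 6.

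Other microRNAs reported in endothelial cells were set beside miR-126. The list held 22 names, both arms of miR-126 among them, many of which are also made by other liver cells, and 16 were tested. miR-222, miR-17, miR-18a and miR-218 were detected on 0 arrays, and miR-10b and miR-210 on 1 array each. In cycle 2, 9 of the 16 were higher and 7 lower, with a median of 0.01 log2 units, against 60.4% higher and a median of 0.019 over all 139 entries. Between dark and light 9 were lower and 7 higher in the dark, with a median of -0.01, against 66.9% lower and a median of -0.023 over all entries. The shares over all entries also count those at the lower limit on all 12 arrays, such as miR-219. Their difference was 0, yet each was counted as lower or higher. With scaling on all probes both medians moved with the rest, to -0.524 between cycles and 0.419 between dark and light. In limma 0 of the 16 passed in either comparison (0% of all entries), with 1 at an unadjusted p under 0.05 in each. Between cycles that was miR-126-3p itself, and between dark and light it was miR-31 (-0.11 log2 units).

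miR-10a, which restrains inflammatory signalling in endothelium, differed by 0.06 log2 units between cycles (95% interval -0.02 to 0.14). miR-23a, miR-27a and miR-24, made from a shared cluster, differed by 0.03, 0.01 and -0.02, and their paralogues miR-23b and miR-27b by 0.02 and -0.04. miR-92a and miR-20a of the miR-17-92 clusters differed by -0.02 and 0.01. miR-221, made together with miR-222, differed by -0.03, miR-130a by -0.04, and miR-31 by 0.00. miR-151-5p differed by 0.06. miR-296-5p, dim at 27.8 units, differed by 0.19 (95% interval -0.02 to 0.41), and miR-146a, which restrains NF-kB signalling, by -0.06. Of these differences each had an adjusted p of at least 0.865 in limma.

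Leading microRNAs of other cell types gave the setting for these values. miR-122 of hepatocytes differed by 0.04 log2 units between cycles (95% interval -0.05 to 0.12), miR-451 of red cells by -0.02 (-0.44 to 0.40) and miR-142-3p of leukocytes by -0.04 (-0.23 to 0.14). miR-143 of smooth muscle and stellate cells differed by -0.10 (-0.27 to 0.07), and miR-200b of bile duct epithelium, near the lower limit, by -0.30 (-0.75 to 0.16). Over the marker lists 2 of 5 hepatocyte entries, 1 of 4 leukocyte entries, 1 of 2 red cell entries, 0 of 4 mesenchymal entries and 0 of 2 epithelial entries were higher in cycle 2. The share over all 139 entries was 60.4%. In the dark 4 of 5 hepatocyte, 4 of 4 leukocyte, 0 of 2 red cell, 0 of 4 mesenchymal and 0 of 2 epithelial entries were lower. Over all entries 66.9% were lower in the dark, and 0 of these marker entries passed in limma in either comparison. Their part in the values of miR-126 was not tested.

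**Figure D5:**
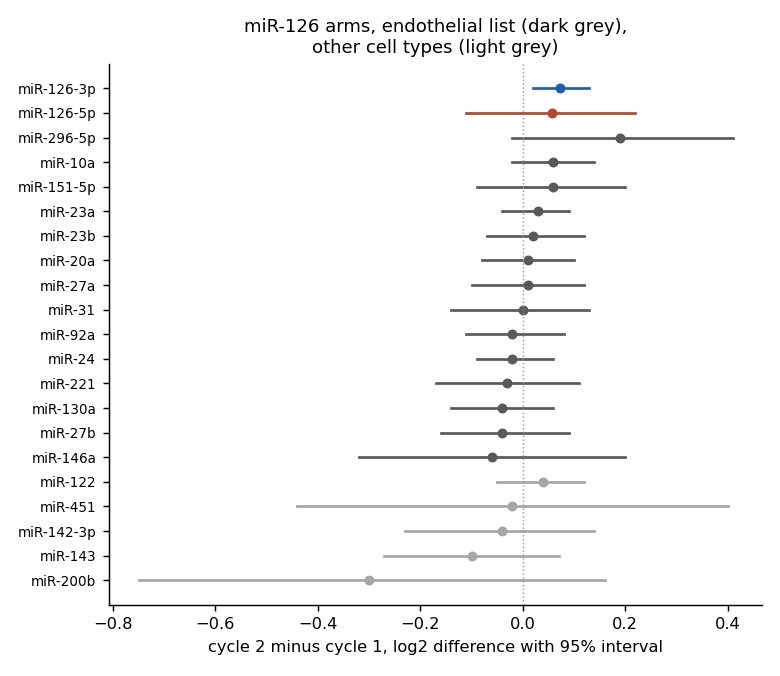
Cycle 2 minus cycle 1 on the log2 scale with 95% intervals from limma, for both arms of miR-126 (coloured), the other tested microRNAs of the endothelial list (dark grey) and leading microRNAs of other cell types (light grey). The interval of miR-126-3p runs from 0.02 to 0.13, and each other interval shown spans 0. These intervals are not adjusted for the 139 entries tested, and the adjusted p of miR-126-3p in limma was 0.865.

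The entries whose course over the 12 arrays was most like that of each arm were different for the arms. For miR-126-3p they were miR-103 (r = 0.773), let-7a (0.725), miR-23b (0.708), miR-152 (0.705) and miR-194 (0.69), out of 107 entries. For miR-126-5p they were miR-122 (r = 0.806), let-7f (0.794), miR-101b (0.759), miR-1895 (0.704) and miR-20b (0.682). The other arm would have held place 41 in the order of miR-126-3p and place 46 in that of miR-126-5p. The lowest r with miR-126-3p were those of miR-146a (-0.468), miR-350 (-0.401) and miR-223 (-0.327), and with miR-126-5p those of miR-331-3p (-0.457), miR-30e (-0.366) and miR-146a (-0.334). These correlations describe arrays that share their scaling. Without scaling 3 of the 5 nearest entries of miR-126-3p and 4 of the 5 of miR-126-5p were the same, and with quantile normalization 0 and 1.

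Several of the entries most like miR-126-5p shared its low arrays. miR-122 was at its lowest on the same pair of arrays, at 29500 units on ZT30 and 29700 on ZT62, against a mean of 31500. let-7f (3080 and 3260 units, mean 3490) and miR-101b (517 and 561, mean 581) were also lowest there, as was the dim miR-1895 (24.2 and 28.2, mean 35.4). miR-126-3p was second lowest on ZT30 but not low on ZT62, being 0.07 log2 units under its mean on ZT30 and 0.04 over it on ZT62. Without these arrays r with miR-126-5p was 0.515 for miR-122, 0.164 for let-7f, 0.368 for miR-101b, 0.475 for miR-1895 and 0.465 for miR-20b. For miR-126-3p, leaving out ZT30 and ZT38 gave r = 0.662 for miR-103, 0.532 for let-7a, 0.409 for miR-23b, 0.64 for miR-152 and 0.583 for miR-194.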

How the data were processed

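Liver microRNAs were measured on 12 one-colour Agilent arrays, 1 per pool of 2 livers. The deposited values are spot intensities, with background subtracted and spatial trends removed in Agilent Feature Extraction (10.7.3.1 per the file headers, 9.5.3.1 per the submitters' processing notes). The deposited series table holds the same intensities (largest difference 0). Control spots and outlier spots (3.82% to 6.94%) were left out, spots of a probe were averaged, and arrays were brought to a common 75th percentile, taken over 157 probes that every array detected (factors 0.8654 to 1.099). A lower limit of 21.9 units was set before log2. Each entry was represented by its brightest probe. No spot was saturated (0).

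limma 3.58.1 (R 4.3.3) was fitted over 139 entries with an intensity trend and Benjamini-Hochberg adjustment at 0.05, and was tested on simulated data. Ratios of the arms were tested by exact permutation or 100000 draws. Named entries were both arms, the endothelial list, 1 leading microRNA per cell type, and for each arm the 5 entries of highest and 3 of lowest r. The members and lists were chosen with earlier results of these data known. The alternatives were other scalings (all probes, none, quantile, and miR-122 added after seeing the data), normexp, other probe summaries (the second 3p probe added after seeing the data), the slide, the cycle as a replicate block, other detection filters and each array left out. Normexp was run on median spot signals in place of the mean signals planned.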

Additional observations from a re-analysis of the deposited data

Results flagged for a closer look

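In 12 groups of 6 arrays (light, dark and each cycle, for both arms and their difference), 4 held an array far from the others by Dixon's test; chance flags about 1 in 20 groups, and these groups share arrays. miR-126-5p on ZT30 measured 6.22 log2 units, with the next light array at 6.46 and the next cycle 1 array at 6.39. The difference of the arms (3p minus 5p) on ZT30 was 4.09, with the next light array at 3.93. On ZT62 it was 4.17, with the next cycle 2 array at 3.97. The spots of miR-126-5p had a standard error of 0.0734 log2 units on ZT30 and 0.0818 on ZT62, and miR-122 was at its lowest on both arrays.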

How the results depend on the processing

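No test of a difference or rhythm in either arm, or between them, passed its threshold under the alternatives that could be fitted, but several signs turned. Without a filter on detection the trend could not be fitted, since 460 of 650 entries lay at the lower limit on all arrays; the cycle difference of the arms was not run with the slide as a block or on slide 1, which holds 2 such pairs. With scaling on all probes the cycle difference was -0.46 for miR-126-3p and -0.477 for miR-126-5p, the dark minus light difference of miR-126-5p 0.411, the endothelial medians -0.524 (cycle) and 0.419 (dark minus light), and the correlation of the arms 0.977 (permutation p = 3e-05). With no scaling the correlation was 0.718 (permutation p = 0.0097) and the dark minus light difference of miR-126-5p 0.0422. Scaled to miR-122, they were -0.284 and 0.00729. With normexp the correlation was -0.868 (permutation p = 0.0524), the cycle difference of the arms -0.333, and 1 entry passed for each of rhythm and time of day. With Agilent's total gene signal the correlation was -0.144, the dark minus light difference 0.142 for miR-126-5p and -0.139 for the arms, and the cycle difference of miR-126-5p -0.0341. The mean of both probes gave miR-126-3p a dark minus light difference of -0.0105 and the second probe -0.029, with -0.0104 for the arms. On slide 1 alone that difference was 0.0758 for miR-126-5p and -0.0381 for the arms, and 3 entries passed for time of day. With each array left out in turn the dark minus light difference ran from -0.00467 to 0.0261 for miR-126-3p, from -0.0637 to 0.0155 for miR-126-5p and from -0.0149 to 0.0591 for the arms, and the cycle difference of the arms from -0.0446 to 0.0592. Leaving out ZT30 gave 2 entries for dark minus light (range 0 to 2). Leaving out ZT26 gave 8 for time of day (range 0 to 8). Neither arm was among them. The cycle as a replicate block changed no call (dark minus light 0.00811 for miR-126-3p). Scaling on all probes rests on a percentile over 1857 probes, of which 157 were detected on every array. The cause of these shifts was not tested. The number of arrays and, for miR-126-5p, the spread of its spots limit the precision.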
